A study of Mus musculus with 6 samples.

Results

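Enzymes that crosslink collagen or prepare it for crosslinking were compared between VEC-positive and VEC-null mouse endothelial cells. The set was given by name and holds 10 genes, namely *Lox*, *Loxl1* to *Loxl4*, *Plod1* to *Plod3*, *Fkbp10* and *Tgm2*. The table of normalized gene counts has a row for 9 of these 10 among 24080 genes, and *Lox* was not analysed here. VEC (vascular endothelial cadherin, encoded by *Cdh5*) is the adhesion receptor of endothelial junctions. VEC-null cells are endothelial cells obtained from mouse embryonic stem cells homozygous for a null mutation of *VEC*, and VEC-positive cells are the same line into which a retrovirus had carried wild-type *VEC*. Total RNA of each line was sequenced in 3 libraries, so that all 6 libraries share the null background and differ by the transferred gene and by whatever else separates 1 reconstituted line from its parent. The p-values below therefore measure the spread between libraries, and an effect of VEC cannot be told apart from other differences between the lines.

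Collagen becomes insoluble through bonds between lysines. Inside the endoplasmic reticulum, the lysyl hydroxylases encoded by the *Plod* genes add a hydroxyl group to chosen lysines, with the chaperone FKBP65, encoded by *Fkbp10*, assisting the enzyme that acts on the ends of the chain. Outside the cell, the copper-dependent oxidases of the LOX family convert lysines and hydroxylysines to aldehydes, which then react with neighbouring chains of collagen or elastin. Transglutaminase 2, the product of *Tgm2*, joins glutamines to lysines instead and is abundant in endothelium, where it also binds nucleotides and fibronectin.

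The crosslinking enzymes did not move as a block. *Fkbp10* had 869 reads over the VEC-positive libraries and 0 over the VEC-null libraries, and *Loxl4* had 114 reads over the VEC-positive and 1 over the VEC-null libraries. *Tgm2* was 70.7-fold lower and *Loxl2* 8.06-fold lower in VEC-positive cells, and *Loxl3* was 2.97-fold higher. The lysyl hydroxylases stayed close to each other, with *Plod3* 1.40-fold higher, *Plod1* 1.17-fold lower and *Plod2* short of the threshold. Of the 9 genes with a row, 8 were tested, having 10 or more normalized counts in no fewer than 3 libraries, and *Loxl1* was below this filter. Among those 8, 4 were higher, 3 were lower and 1 did not pass at an adjusted p of 0.05 (limma, Benjamini-Hochberg over 14032 tested genes). For all tested genes, 37.3% passed in either direction, 20.9% higher and 16.4% lower, that is 2927 and 2304 genes. With libraries scaled to equal totals in place of the deposited size factors, 1566 genes were higher and 4960 lower, and of the members 3 were higher and 3 lower. The median log2 fold change of the 8 was 0.38, beside -0.01 over all tested genes. *Fkbp10*, whose VEC-null libraries are all at 0, and *Loxl4* reached the filter through the VEC-positive libraries alone. A difference between the groups was thus built into their being tested, and both count toward this median and among the 4 members higher. Neither the median nor that count is therefore a measure of a shift of the members. The libraries of both groups did not overlap for 7 of the 8, beside 50% of all tested genes. For *Fkbp10* and *Loxl4* the lack of overlap also followed from the filter, so the 7 cannot be weighed against that share.

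**Figure D1:**
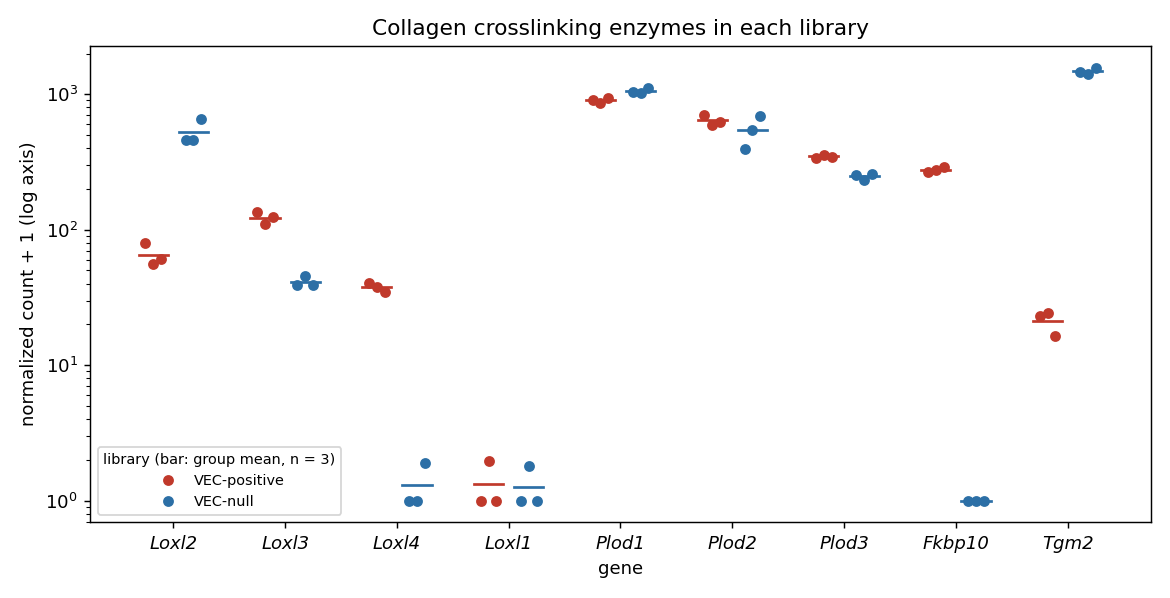
Normalized count plus 1 (log axis) of the 9 crosslinking genes with a row, with 1 point per library and a bar at the group mean (n = 3), VEC-positive in red at the left of each gene and VEC-null in blue at its right. *Fkbp10* was at 0 in each of the 3 VEC-null libraries, *Tgm2* and *Loxl2* lay lower in VEC-positive cells, and the groups overlapped only for *Plod2* and *Loxl1*.

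The libraries held 9598590 to 14136376 reads in VEC-positive cells and 6036155 to 11670273 in VEC-null cells. *Cdh5* itself ran against the labels, at 739 to 794 normalized counts in libraries labelled VEC-positive and 1334 to 1689 in libraries labelled VEC-null, and a count per gene does not show whether reads come from the null allele or the transferred copy. Some other genes that the study describes as induced by VEC were higher in libraries labelled VEC-positive. Their log2 fold changes were 2.12 for *Vwf*, 2.20 for *Tiam1*, 1.55 for *Stat6* and 1.09 for *Elk3*. The rest of its induced genes, among them *claudin-5* and *VE-PTP*, are not given here. *Pecam1*, which the study describes as not influenced by VEC, was higher at 0.34 (adjusted p = 0.0143 from limma). The study also required an absolute log2 fold change of 1 or more for a regulated gene, which *Pecam1* does not reach here. It measured *Pecam1* by quantitative PCR as well. All directions here are by label. Of 10 endothelial markers, all were tested, 7 were higher, 1 was lower and 2 did not pass, beside 20.9% higher and 16.4% lower over all tested genes. The 7 had log2 fold changes of 0.34 to 0.70, and the 1 lower was *Cdh5* itself. Scaling to equal totals moved the median of all tested genes to -0.32, and the calls of these markers under it are not given here. VEC-null 3 stood apart from the other VEC-null libraries (chi-square per gene 51.21 and 50.91, against 6.7 between VEC-null 1 and 2), and where a member's call changed without it that value is given. Mitochondrial genes took 17.97% to 24.18% of reads in VEC-positive and 9.62% to 14.9% in VEC-null libraries. Their part in the results was not tested.

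The LOX-family members are close relatives, and their catalytic region is the part that they share most. The coding stretch around the copper-binding histidines is shown for the 4 members with a row, since it lets the paralogues be told apart letter by letter. Each run has 33 bases and 11 codons in the sense direction, and capitals mark the histidine codons.
Loxl2: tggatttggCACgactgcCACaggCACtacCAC
Loxl4: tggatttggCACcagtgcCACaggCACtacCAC
Loxl3: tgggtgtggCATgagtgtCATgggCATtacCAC
Loxl1: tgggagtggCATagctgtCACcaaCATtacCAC
These are codons 622 to 632 of *Loxl2*, codons 607 to 617 of *Loxl4*, codons 602 to 612 of *Loxl3* and codons 476 to 486 of *Loxl1*, in the longest coding transcript of GENCODE M21 on mm10. Every one of the 4 stretches is interrupted by an intron in the genome. It joins exons 10 and 11 of 14 in *Loxl2* (chr14:69682316-69689037, plus strand), exons 11 and 12 of 15 in *Loxl4* (chr19:42598807-42599899, minus strand), exons 10 and 11 of 14 in *Loxl3* (chr6:83049995-83050125, plus strand) and exons 3 and 4 of 7 in *Loxl1* (chr9:58293720-58294381, minus strand). *Loxl2* and *Loxl4* had 31 of 33 bases in common (93.9%), whereas the other pairs had 63.6% to 75.8% in common. Across whole transcripts, no run of 50 bases of any of the 9 members occurred in another of the 9. A read of that length from 1 of them thus has no perfect match in a second. *Lox* was not compared. Reads with several matches were counted by a rule not given in the sources used here.

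*Loxl2* (ENSMUSG00000034205, chr14:69609068-69695834, plus strand) encodes a lysyl oxidase that acts on basement membrane type IV collagen and is secreted by endothelial cells during sprouting. It had 78.1, 54.6 and 59.7 normalized counts in VEC-positive libraries 1, 2 and 3, against 459, 458 and 661 in VEC-null libraries 1, 2 and 3. The highest VEC-positive library lay far under the lowest VEC-null library. Means were 64.1 ± 12.4 in VEC-positive and 526 ± 117 in VEC-null cells (SD, n = 3 each), for a log2 fold change of -3.01 (SE 0.19, adjusted p = 1.72e-05 from limma). These values rest on 197 and 1627 reads. Of 14032 tested genes, *Loxl2* had rank 116 from the lowest log2 fold change. Beside it on chromosome 14, the nearest protein-coding genes were *R3hcc1* and *Entpd4b*. *R3hcc1* did not pass (-0.21, adjusted p = 0.376 from limma). *Entpd4b* was higher at 0.27 (adjusted p = 0.0358 from limma), and its reads may be shared with its close copy *Entpd4*. Scaling to equal totals moved the median of all tested genes to -0.32, and the call of *Entpd4b* under it is not given.

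*Loxl3* (ENSMUSG00000000693, chr6:83034173-83052562, plus strand) encodes an oxidase needed for the palate and spine in mice. Normalized counts were 134, 109 and 123 in VEC-positive cells, against 38.3, 44.9 and 38.1 in VEC-null cells. All VEC-positive libraries were above all VEC-null libraries, at means of 122 ± 12.5 and 40.4 ± 3.87 (SD, n = 3 each). The log2 fold change was 1.57 (SE 0.17, adjusted p = 0.000224 from limma), from 379 and 125 reads. *Loxl3* overlaps *Htra2*, a gene of the opposite strand that did not pass (-0.23, adjusted p = 0.449). Likewise *Dok1*, whose start site lies 702 bases from that of *Loxl3* on the other strand, did not pass (0.13, adjusted p = 0.674).

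*Loxl4* (ENSMUSG00000025185, chr19:42593982-42612813, minus strand), the closest relative of *Loxl2* in the stretch printed above, ran in the opposite direction. It had 39.7, 37.0 and 33.9 normalized counts in VEC-positive libraries, against 0, 0 and 0.887 in VEC-null libraries. Behind these stand 114 reads in VEC-positive and a single read in VEC-null cells, a ratio after size factors of 111 with a 95% counting interval of 19.6 to 4437. The fitted log2 fold change of 4.93 (SE 0.45, adjusted p = 9.78e-05 from limma) depends on the pseudocount of 1 and is no bound. Its neighbour *R3hcc1l*, whose end faces that of *Loxl4* across 1638 bases, was higher at 0.33 (adjusted p = 0.0482 from limma). Scaling to equal totals moved the median of all tested genes to -0.32, and the call of *R3hcc1l* under it is not given.

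*Loxl1* (ENSMUSG00000032334, chr9:58287738-58313186, minus strand), whose product works mainly on elastin, had 0, 0.974 and 0 normalized counts in VEC-positive libraries and 0, 0.788 and 0 in VEC-null libraries. That is 1 read in each cell type, and no fold change is given.

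Levels of different genes were compared as normalized counts per kb of exon. Per kb, the 4 LOX-family genes together summed to 47.2 ± 5.22 in VEC-positive and 106 ± 21.3 in VEC-null cells (SD, n = 3 each). *Loxl2* made up 27.3%, 23.5% and 24.2% of that sum in the VEC-positive libraries, against 91.1%, 89.4% and 93.5% in the VEC-null libraries. *Loxl3* took the larger share in VEC-positive cells, 56.2% ± 1.82, against 8.52% ± 2.02 in VEC-null cells. The share of *Loxl4* was 18.6% ± 1.63 in VEC-positive and 0.0536% ± 0.0928 in VEC-null cells. *Loxl2* was thus the most abundant LOX-family gene measured in each VEC-null library, and *Loxl3* in each VEC-positive library, with *Lox* outside the sum. These shares are a description and were not tested. In RNA of a whole culture, fewer cells that make a transcript and less of it per cell cannot be told apart.

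**Figure D2:**
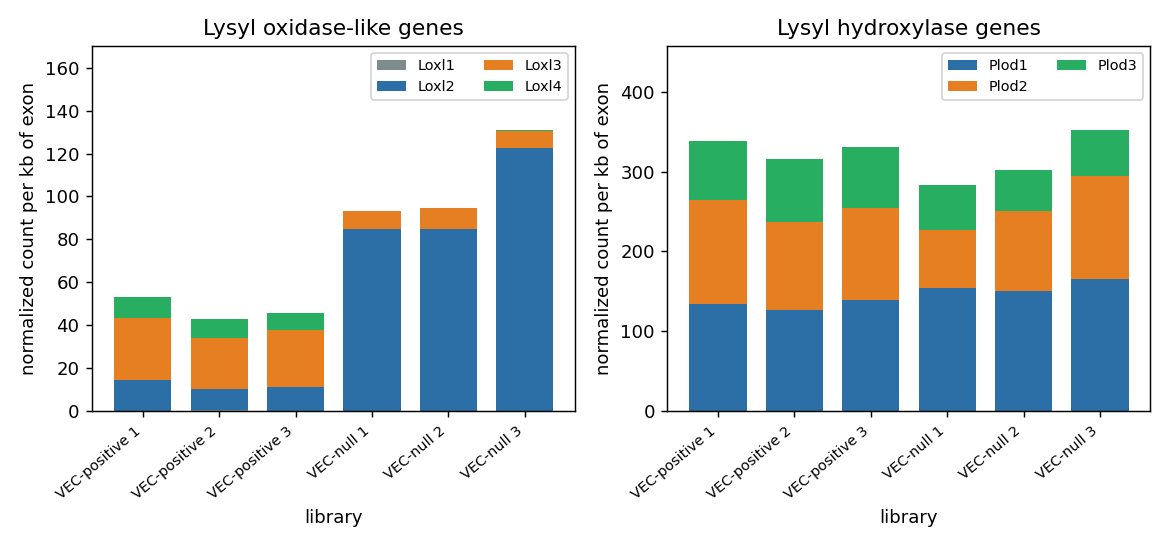
Normalized counts per kb of exon (linear axis, bars from 0) of the LOX-family genes at the left and of the *Plod* genes at the right, stacked by gene for each library, with VEC-positive libraries before VEC-null libraries. *Loxl3* was the largest piece of the LOX bar in VEC-positive libraries, at 56.2% on average, and *Loxl2* filled 91.3% of it in VEC-null libraries, while the sums of the 3 *Plod* genes overlapped between the groups.

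Among the lysyl hydroxylases, *Plod1* (ENSMUSG00000019055, chr4:147909753-147936767, minus strand), which hydroxylates lysines within the triple helix, had 904, 858 and 941 normalized counts in VEC-positive libraries. Its VEC-null values were 1040.5, 1016 and 1119.8. The groups did not overlap, but the difference was small, with means of 901 ± 41.4 in VEC-positive and 1059 ± 54.3 in VEC-null cells (SD, n = 3 each). The log2 fold change was -0.23 (SE 0.08, adjusted p = 0.0439 from limma), and it passed in 10 of 18 alternative analyses, with adjusted p between 0.00112 and 0.164. *Plod1* missed the threshold without VEC-positive 1, 2 or 3 (adjusted p = 0.12, 0.164 and 0.0715) and without VEC-null 1 or 2 (adjusted p = 0.0779 and 0.0642).

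*Plod2* (ENSMUSG00000032374, chr9:92542223-92608428, plus strand) encodes the hydroxylase of the telopeptides, the chain ends where most crosslinks form, and is a known target of hypoxia. It had 702, 596 and 621 normalized counts in VEC-positive libraries, against 396, 541 and 696 in VEC-null libraries, so that the groups overlapped. Means were 639.9 ± 55.4 in VEC-positive and 544 ± 150 in VEC-null cells (SD, n = 3 each), for a log2 fold change of 0.27 with a 95% interval of -0.16 to 0.70 (adjusted p = 0.301 from limma). Its coefficient of variation was 8.65% among VEC-positive and 27.5% among VEC-null libraries. Without VEC-null 3 the log2 fold change was 0.46 (adjusted p = 0.0175), and with libraries scaled to equal totals it was -0.04 (adjusted p = 0.861). The upstream gene *Plscr4*, which lies 49766 bases before *Plod2* and encodes a scramblase-family membrane protein, was higher at 46.7, 42.9 and 40.3 normalized counts in VEC-positive libraries, against 0, 2.36 and 4.43 in VEC-null libraries (log2 fold change 4.07, adjusted p = 0.0013). *Plscr4* reached the filter through the VEC-positive libraries alone.

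*Plod3* (ENSMUSG00000004846, chr5:136987019-136996648, plus strand) encodes the member that also adds sugars to hydroxylysine and is required for type IV collagen and basement membranes in mice. It had 337, 356 and 346 normalized counts in VEC-positive libraries, against 251, 232 and 259 in VEC-null libraries, with no overlap. The log2 fold change was 0.49 (SE 0.09, adjusted p = 0.00406 from limma). With equal totals, which moved the median of all tested genes to -0.32, it was 0.18 and no longer passed (adjusted p = 0.133, the highest of 18 alternatives, with 0.00139 the lowest). *Znhit1*, which overlaps *Plod3* on the other strand, did not pass (0.30, adjusted p = 0.202). *Cldn15*, which lies 11160 bases before *Plod3* on the same strand and encodes a claudin, was higher at 0.77 (adjusted p = 0.00567).

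Summed per kb of exon, the 3 *Plod* genes reached 328 ± 11.4 in VEC-positive and 312 ± 35.7 in VEC-null cells (SD, n = 3 each). *Plod1* took 40.5% ± 1.32 of the sum in VEC-positive and 50.4% ± 3.71 in VEC-null cells. *Plod2* took 36.1% ± 2.07 in VEC-positive and 31.97% ± 5.46 in VEC-null cells, and *Plod3* 23.4% ± 1.44 in VEC-positive and 17.6% ± 1.77 in VEC-null cells. The order of the group means, *Plod1* over *Plod2* over *Plod3*, was the same in both cell types, unlike in the LOX family. The ranges of *Plod1* and *Plod2* overlapped in VEC-positive cells (127 to 139 and 111 to 130.2 per kb), although *Plod1* was above *Plod2* within each of the 3 libraries.

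*Fkbp10* (ENSMUSG00000001555, chr11:100415697-100424824, plus strand) encodes FKBP65, the chaperone without which telopeptide lysines of type I collagen are poorly hydroxylated in mice and people. It had 267, 276 and 288 normalized counts in VEC-positive libraries and 0 in each VEC-null library. The 869 reads in VEC-positive cells stand against 0 reads in VEC-null cells, so that *Fkbp10* was at least 283-fold higher, with a floor of 3 reads over the VEC-null group. Its fitted log2 fold change of 8.12 (SE 0.27, adjusted p = 7.51e-07 from limma) depends on the pseudocount, and it had rank 5 of 14032 from the highest. In VEC-positive cells *Fkbp10* reached 94.4 ± 3.60 per kb of exon (SD, n = 3), between *Plod2* at 119 ± 10.3 and *Plod3* at 76.6 ± 2.04.

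The gene next to *Fkbp10* also belongs to collagen modification. *P3h4* encodes SC65, a partner of lysyl hydroxylase 1 in the endoplasmic reticulum, and lies head to head with *Fkbp10* on the other strand, with start sites 861 bases apart. It had 51.3, 71.1 and 66.2 normalized counts in VEC-positive libraries, against 6.12, 4.73 and 7.09 in VEC-null libraries. Both genes of the pair were therefore higher in VEC-positive cells, *P3h4* with a log2 fold change of 3.20 (SE 0.28, adjusted p = 8.95e-05 from limma), but only *Fkbp10* had no VEC-null read. *P3h4*, too, reached the filter through the VEC-positive libraries alone. At its other end *Fkbp10* overlaps *Nt5c3b* on the opposite strand, which was read at 155 ± 13.8 in VEC-positive and 170.0 ± 9.97 normalized counts in VEC-null cells (SD, n = 3 each; adjusted p = 0.404). The next gene, *Klhl10*, had under 4 normalized counts in every library.

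*Tgm2* (ENSMUSG00000037820, chr2:158116402-158146436, minus strand) was the member with the lowest log2 fold change. Its normalized counts were 22.2, 23.4 and 15.3 in VEC-positive libraries, against 1472, 1402 and 1574 in VEC-null libraries. There were 62 reads in VEC-positive and 4517 in VEC-null cells, a ratio after size factors of 74.6 (95% counting interval 58.1 to 97.4) in favour of VEC-null cells. Means were 20.3 ± 4.34 in VEC-positive and 1482 ± 86.5 in VEC-null cells (SD, n = 3 each), for a log2 fold change of -6.14 (SE 0.17, adjusted p = 5.34e-07 from limma) and rank 14 of 14032 from the lowest. Per kb of exon *Tgm2* was first of the 9 members in VEC-null cells (322 ± 18.8) and eighth in VEC-positive cells (4.40 ± 0.94). *Rprd1b*, which overlaps *Tgm2* on the opposite strand, went the other way, at 538 ± 14.5 in VEC-positive and 387 ± 28.5 normalized counts in VEC-null cells (log2 fold change 0.47, adjusted p = 0.00352). The kit keeps strand, but whether the counting used it is a setting not given in the sources used here, so reads in overlaps of such pairs may be shared.

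**Figure D3:**
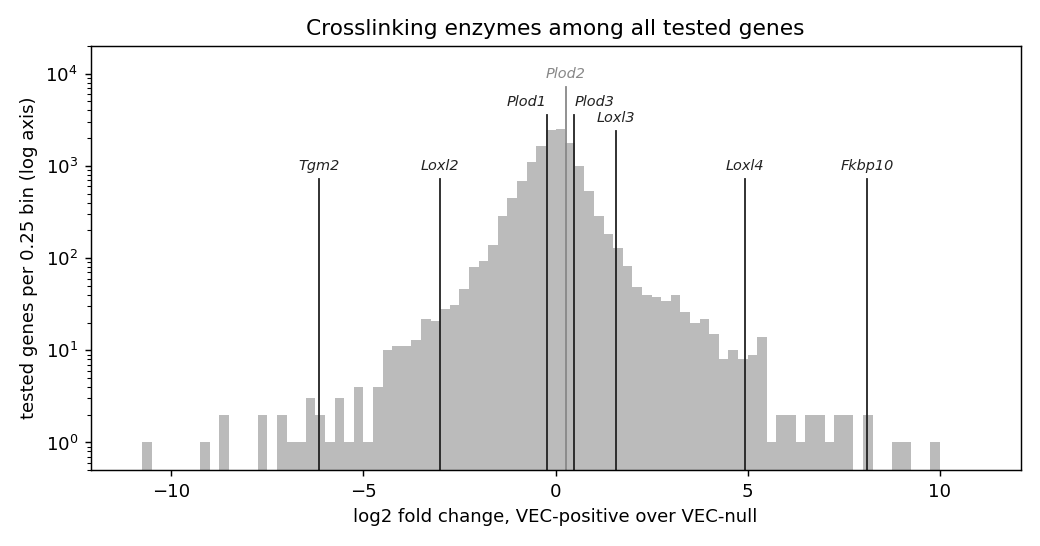
Number of tested genes (log axis) by log2 difference between VEC-positive and VEC-null cells (positive, higher in VEC-positive) in bins of 0.25, with lines at the 8 tested crosslinking genes (grey for *Plod2*, which did not pass). *Tgm2* at -6.14 and *Fkbp10* at 8.12 lay in the tails, and the 3 *Plod* genes lay between -0.23 and 0.49.

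Promoters are shown for *Loxl4* and *Plod3*, which were both higher, *Loxl4* with a single VEC-null read and *Plod3* at substantial levels in both cell types. RefSeq windows of GRCm38.p6, from 250 bases before to 50 after a start, were matched for 3 of the 10 members, the third being *Plod1*. Each run is on the gene's own strand, 5′ to 3′, and capitals mark CpG dinucleotides.
Loxl4: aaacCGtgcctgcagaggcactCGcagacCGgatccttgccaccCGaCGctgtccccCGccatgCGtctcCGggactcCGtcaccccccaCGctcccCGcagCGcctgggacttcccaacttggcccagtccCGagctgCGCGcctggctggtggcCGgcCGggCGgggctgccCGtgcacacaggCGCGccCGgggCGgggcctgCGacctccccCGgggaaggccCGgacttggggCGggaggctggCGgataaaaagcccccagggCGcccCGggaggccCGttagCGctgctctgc
Plod3: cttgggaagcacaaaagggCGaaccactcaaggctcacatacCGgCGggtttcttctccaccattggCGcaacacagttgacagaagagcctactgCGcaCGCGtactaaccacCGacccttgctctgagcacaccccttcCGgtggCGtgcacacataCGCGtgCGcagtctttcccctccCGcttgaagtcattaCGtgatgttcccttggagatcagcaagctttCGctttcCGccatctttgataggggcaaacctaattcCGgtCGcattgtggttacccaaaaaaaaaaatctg
The *Loxl4* window (chr19:42612757-42613056, minus strand) has 32 CpG and a GC content of 75%, and 90.5% of 32851 RefSeq windows have fewer CpG. The *Plod3* window (chr5:136986769-136987068, plus strand) has 19 CpG and a GC content of 53.3%, with 71.9% of windows having fewer. *Plod1* has 25 CpG, and the median window has 7. The study asks about FoxO1 and β-catenin, so both strands were searched for the core letters of TCF sites (CTTTGA or CTTTGT) and of FoxO sites (GTAAACA). The TCF letters occur in the *Plod3* window, as CTTTGA at -9 from the start, and not in the *Loxl4* or *Plod1* windows, whereas 31.2% of all windows have them. The FoxO letters are in none of these 3 windows and in 3.6% of all windows. The study searched far longer stretches around the starts of *VE-PTP* and *vWf*, and for paired sites. A match of letters, or its absence from so short a window, is a description only.

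The genes that work with the crosslinking enzymes were read from the same fit, by lists. Of 18 genes for folding and modifying procollagen in the endoplasmic reticulum, 17 were tested, 5 were higher, 4 were lower and 8 did not pass, with a median log2 fold change of -0.09. *P4ha2*, a prolyl hydroxylase subunit, was higher at 1.10 (adjusted p = 0.00101), as was the chaperone *Fkbp9* at 0.51 (adjusted p = 0.00263). *P3h3*, a lysyl hydroxylase partner that works together with SC65, was lower at -0.97 (adjusted p = 0.00483), opposite to *P3h4*. The related *Fkbp14* was lower at -0.63 (adjusted p = 0.0491), whereas *P4hb* (-0.22, adjusted p = 0.299) and *Ppib* (0.19, adjusted p = 0.341) did not pass. The other FKBP chaperones of the list, unlike *Fkbp10*, had reads in both cell types.

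Before fibrils can be crosslinked, proteases remove the propeptides. Of 8 genes for this step, 5 were tested, 3 were higher and 2 did not pass, with a median of 1.75. *Tll1*, a protease of the BMP1 family, had 5495 ± 243 normalized counts in VEC-positive and 585 ± 68.4 in VEC-null cells (SD, n = 3 each), a log2 fold change of 3.23 (adjusted p = 5.34e-07 from limma). *Pcolce*, which enhances these proteases, was higher at 2.18 (adjusted p = 0.00232), and *Bmp1* itself did not pass (-0.32, adjusted p = 0.143). BMP1-type proteases also activate the LOX proenzyme.

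Of 11 fibrillar collagen chains, 7 were tested, 3 were higher and 4 did not pass (median 0.82). *Col5a2* was read at 1361 ± 47.9 and *Col3a1* at 739 ± 44.1 normalized counts in VEC-positive cells, with 1 read each over the 3 VEC-null libraries. These chains, like *Fkbp10*, reached the filter through the VEC-positive libraries alone. With both among the 3 higher chains, neither that count nor the median of 0.82 is a measure of a shift of the list. *Col5a1* was higher at 0.82 (adjusted p = 0.000667), while *Col1a2* did not pass (0.27, adjusted p = 0.792). *Col1a2* had 85.1, 46.8 and 86.3 normalized counts in VEC-positive libraries, against 127, 98.4 and 15.1 in VEC-null libraries, where VEC-null 3 was the low one. Of 6 type IV chains, the substrates named above for *Loxl2* and *Plod3*, 3 were tested. *Col4a1* (0.61, adjusted p = 0.00263) and *Col4a2* (0.77, adjusted p = 0.000556) were higher. *Col4a5* was at least 386-fold lower with a floor of 3 reads, having 0 reads in VEC-positive and 1130 reads in VEC-null cells. It reached the filter through the VEC-null libraries alone. *Pxdn*, peroxidasin, which forms the sulfilimine crosslink of type IV collagen, was lower, at 1223 ± 52.5 in VEC-positive and 2481 ± 162 normalized counts in VEC-null cells (SD, n = 3 each; log2 fold change -1.02, adjusted p = 4.18e-05 from limma). It was the only tested gene of 10 other crosslinkers, of which 4 more had a row and were below the filter, namely *Tgm1*, *Tgm3*, *Tgm5* and *F13a1*.

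Elastin, the other substrate of the LOX family, had 64.2, 56.5 and 63.8 normalized counts of *Eln* in VEC-positive libraries, against 3.06, 5.51 and 0.887 in VEC-null libraries (log2 fold change 4.08, adjusted p = 0.000321), and was singled out after its values were seen. It also reached the filter through the VEC-positive libraries alone. Of 11 genes for elastic fibre assembly, 4 were tested, 3 were higher and 1 did not pass (median 2.12). With *Eln* among the 3, neither this count nor this median is a measure of a shift of the list. *Emilin1* was higher at 3.05 (adjusted p = 7.11e-05), and *Fbn1* did not pass (0.69, adjusted p = 0.0896). *Loxl1*, the oxidase most tied to elastin, had 1 read in each cell type as given above.

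Copper must reach the secretory pathway to load LOX enzymes. Of 6 genes for copper supply, 5 were tested, 2 were higher, 1 was lower and 2 did not pass (median 0.22). *Atp7a*, the pump that carries copper into the secretory pathway, was lower at -0.70 (adjusted p = 0.0009), at 362 ± 33.4 normalized counts in VEC-positive and 589 ± 35.7 in VEC-null cells (SD, n = 3 each). *Atox1*, the chaperone that hands copper to it, was higher at 0.53 (adjusted p = 0.0123), as was the transporter *Slc31a2* at 0.88 (adjusted p = 0.00144). The importer *Slc31a1* did not pass (0.02, adjusted p = 0.899).

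All 8 substrates or partners of transglutaminase 2 were tested, and 2 were higher, 2 were lower and 4 did not pass (median -0.09). Fibronectin (*Fn1*) was lower at -0.67 (adjusted p = 0.000608) and nidogen (*Nid1*) at -0.75 (adjusted p = 0.00049). *Lrp1*, the receptor that takes up transglutaminase 2, was higher at 2.57 (adjusted p = 0.000323). *Itgb1* did not pass (0.04, adjusted p = 0.774). None of the 8 had a log2 fold change as low as that of *Tgm2*. As *Tgm2* had rank 14 of 14032 tested genes from the lowest, this is no trait of the 8.

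Several LOX and *Plod* genes are known to be raised by hypoxia. Of 14 genes of the hypoxia response, 12 were tested, 6 were higher, 1 was lower and 5 did not pass (median 0.42). *Vegfa* (1.06, adjusted p = 7.92e-05), *Higd1a* (1.10, adjusted p = 0.00148) and *Ndrg1* (0.87, adjusted p = 0.00312) were higher, *Pgk1* was lower (-0.77, adjusted p = 0.0231) and *Ldha* did not pass (-0.12, adjusted p = 0.483). *Loxl2*, a hypoxia target in other cells, was lower and *Plod2* did not pass, as given above. The part of hypoxia in any of these results was not tested.

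**Figure D4:**
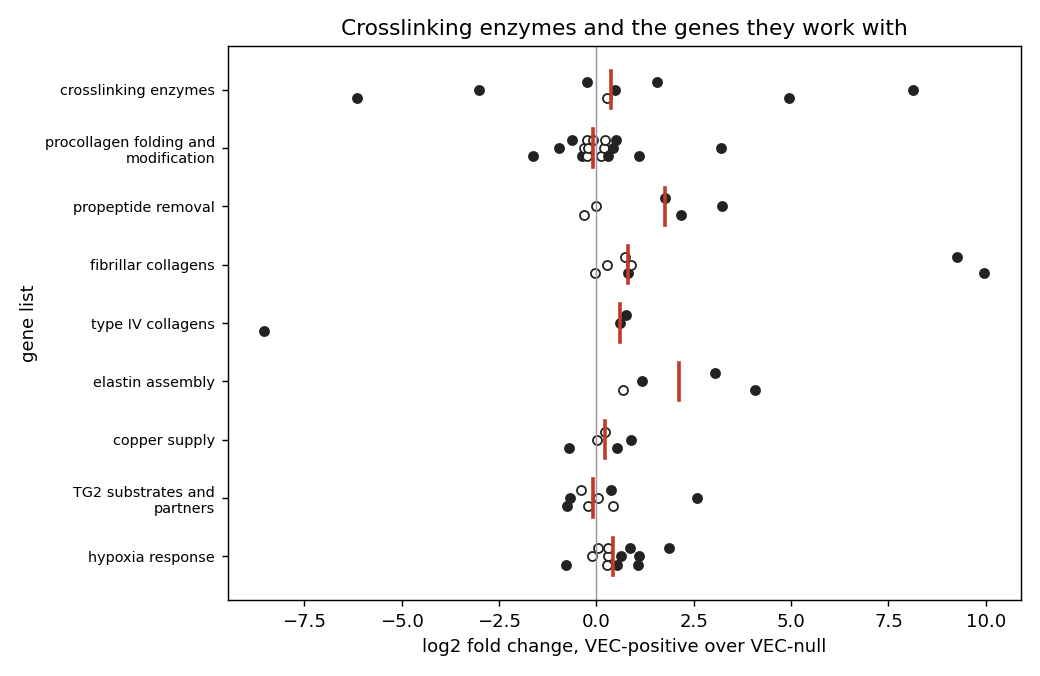
Log2 difference between VEC-positive and VEC-null cells for the tested genes of 9 lists, with 1 point per gene (filled, past an adjusted p of 0.05; open, not passed) and a red line at the median of each list. The crosslinking enzymes ran from -6.14 to 8.12 around a median of 0.38, and the genes for procollagen folding and modification from -1.64 to 3.20 around -0.09. The median of the crosslinking enzymes is no measure of a shift, since *Fkbp10* and *Loxl4* reached the filter through the VEC-positive libraries alone. In the folding list, *Fkbp11* at -1.64 reached it through the VEC-null libraries alone, and *P3h4* at 3.20 through the VEC-positive libraries alone.

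Fibroblasts and mural cells also make crosslinking enzymes, and their markers were read beside these results. Of 15 such markers, 13 had a row and 7 were tested, of which 2 were higher, 1 was lower and 4 did not pass. They summed to 295 to 360 normalized counts in VEC-positive and 191 to 297 in VEC-null libraries. *Pdgfrb* had 95.6, 117.9 and 102.5 in VEC-positive libraries, against 1.53, 0 and 1.77 in VEC-null libraries. *Notch3* was the second marker that was higher (27.6 ± 7.34 in VEC-positive and 2.74 ± 1.07 in VEC-null cells), and *Abcc9* was the one that was lower (4.98 ± 4.08 in VEC-positive and 79.6 ± 15.2 in VEC-null cells, SD, n = 3 each). *Pdgfrb* and *Notch3* reached the filter through the VEC-positive libraries alone, and *Abcc9* through the VEC-null libraries alone. Of the markers below the filter, *Col1a1* had 58 reads in VEC-positive and 9 in VEC-null cells, *Des* 23 and 8, and *Dcn* 10 and 2. *Kcnj8* had 0 reads in VEC-positive and 3 in VEC-null cells, *Cnn1* 0 and 12, and *Rgs5* 6 and 14. The part of such cells in the results for *Fkbp10*, *Loxl4* and the collagens was not tested. Of 6 stem cell markers, 3 had a row and none was tested. Of 6 blood markers, 3 were tested and did not pass (limma), with sums of 143 to 199 in VEC-positive and 129 to 436 in VEC-null libraries.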

How the data were processed

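Per the labels and the study's methods, total RNA of 3 VEC-positive and 3 VEC-null libraries was sequenced with a stranded kit. The submitters' processing notes name Trim Galore, TopHat2 2.1.1, DESeq2 1.14 and mm10, with a counting program and annotation not given in the sources used here. Signal values for 24080 genes were deposited by the authors. They are counts scaled in each library by a size factor, from which whole reads came back within 0.01 of a read for 100% of values. Symbols, positions and exon lengths came from GENCODE M21, for 23908 genes.

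Genes with 10 or more normalized counts in 3 or more libraries entered a two-sided limma-trend fit of log2(value + 1), in limma 3.58.1 under R 4.3.3. The fit was tested on simulated data. Folds are on the log2(value + 1) scale, which understates the change of low genes. Alternatives used 2 other pseudocounts, 2 filters, 3 scalings, 2 variance models, a replicate block, the omission of each library, and recovered reads in DESeq2 1.42.0 or edgeR 4.0.16, 18 in all. Shares not per kb were added after the data were seen. The members and lists were chosen with earlier results of these data known. Of each other list, the rule names as many as 4 genes past the threshold by size of change, if their mean reached 50, 2 that did not pass, and the neighbours of each member, not all of which are given. Counting intervals treat PCR duplicates as reads and cover counting error only. Figures were drawn with matplotlib 3.10.9.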

Additional observations from a re-analysis of the deposited data

How the results depend on the processing

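*Loxl2*, *Loxl3*, *Fkbp10* and *Tgm2* passed in the same direction under 18 of 18 alternatives, *Loxl4* under 17 of the 17 that test it, *Plod3* under 17 of 18, *Plod1* under 10 of 18 and *Plod2* under 1 of 18. Log2 fold changes ran from -3.32 to -2.83 for *Loxl2*, 1.26 to 1.65 for *Loxl3* and -6.45 to -5.89 for *Tgm2*. They ran from 2.98 to 6.63 for *Loxl4* and from 5.82 to 11.15 for *Fkbp10*, whose VEC-null reads are 1 and 0. Members higher numbered 3 to 5 and members lower 2 to 3. With equal totals, 1566 genes were higher and 4960 lower, against 2927 higher and 2304 lower with the deposited size factors, and *Plod2* was at -0.044. The cause was not tested. Calls of neighbours, markers and list genes with equal totals are not given here, and small changes among them may depend on the scaling. On recovered reads, edgeR gave 2817 genes higher and 2506 lower. Leaving out 1 library gave 2111 to 3800 genes higher and 1585 to 3359 lower, the most without VEC-null 3. The replicate numbers did not pair the libraries (correlations of same-numbered libraries 0.076, -0.333 and -0.295). With the replicate block, 2400 genes were higher and 1744 lower, 4 members were higher and 2 lower, and *Plod1* had an adjusted p of 0.0753 from limma. As shares not per kb, *Loxl2* took 28.6% of the LOX sum and *Plod2* 33.9% of the *Plod* sum in VEC-positive cells. With 1 read in each cell type, a difference in *Loxl1* was not detectable at this depth.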
